A study of Homo sapiens with 29 samples.

Results

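ZNF148 knockdown in differentiation media was examined at 48 h in LHCN-M2 cells, a clonal human skeletal myoblast line immortalized with telomerase and CDK4. The comparison used 6 of the 29 arrays of the series. In 1 group, 3 cultures had received 20 nM ZNF148 siRNA, and in the other, 3 cultures had received 20 nM nontargeting siRNA. All 6 were confluent, carried both immortalizing transgenes and were labelled as biological replicates harvested at 48 h in differentiation media. Per the methods, the medium was changed 2 days after transfection, so the nontargeting cells had also been moved to differentiation media. The remaining 23 arrays held the same pair of siRNAs in growth media, sampled after 24, 48 or 96 h, and in differentiation media after 96 h. Of these, the arrays of 48 h in growth media and 96 h in differentiation media are used below for comparison. If the hours in differentiation media count from the medium change, the time since transfection differs between the media. It then cannot be told apart from the medium. RNA was hybridized to 1-colour Agilent gene expression arrays, and levels are given as quantile-normalized log2 signals. The labels do not describe how the cultures of a group were kept apart, so the p-values measure the spread between these samples.

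Skeletal myoblasts leave the cell cycle, fuse and build sarcomeres when mitogens are withdrawn. The basic helix-loop-helix factors MYF5 and MYOD1 mark the committed myoblast, and MYOG and MYF6 act later together with the MEF2 factors on the genes of the contractile apparatus. ZNF148 is a Kruppel-type zinc finger factor that binds GC-rich DNA and can repress or activate transcription.

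At 48 h in differentiation media, ZNF148 knockdown was accompanied by higher signals of most genes in the contractile, calcium-handling, and creatine and energy lists. Most respiratory chain subunits were not called. Most HLA class II and class I antigen presentation genes had lower signals. Of 50 matrix genes, 21 fell and 11 rose. Of 18432 genes with a tested probe, 5902 were called, where a call required limma's adjusted p to be below 0.05 and the signal to change over 2-fold. These were 2763 genes that rose, 15% of those tested, and 3139 that fell, 17%. Each count of genes called in a list at 48 h in differentiation media is to be read beside these shares. Large changes were more often rises. Among genes well above background on all 6 arrays, 170 were over 16-fold higher and 46 over 16-fold lower, and 40 rises and 1 fall passed 64-fold. The median change over all tested genes was -0.048 on the log2 scale. Counted by probe, 10799 of 38839 probes, 27.8%, were called. Of the genes that rose, 515 were not well above background on any nontargeting array, and of those that fell, 332 were not well above background on any ZNF148 siRNA array. Such a gene has only a bound and its change is given below as at least a stated fold. The bound holds for the main processing and is not a minimum over the other settings tried. Under some of them the fitted change was smaller than the bound, as at 9.505 on the log2 scale for SRL and -3.351 for PTGIS. A gene above background on only some arrays of a group is given by its fitted change, which rests in part on signals below background.

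**Figure D1:**
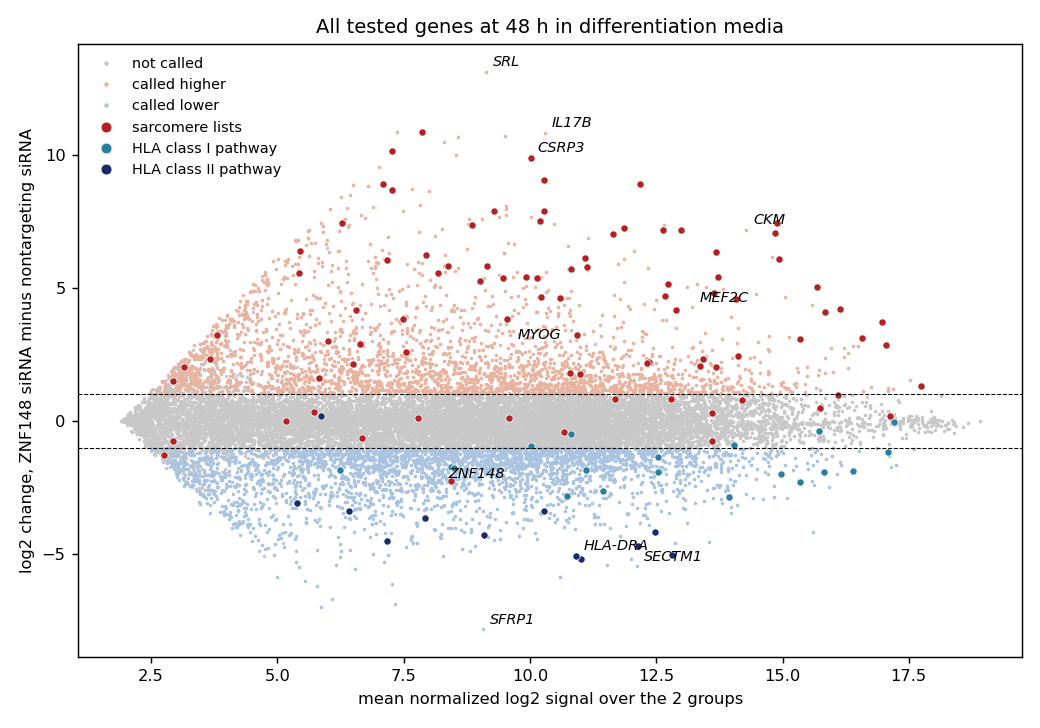
Each point is 1 of 18432 genes, with its mean normalized log2 signal over both groups on the x axis and its log2 change, ZNF148 siRNA minus nontargeting siRNA, on the y axis. The dashed lines mark 2-fold. The sarcomere genes (red) lie mostly above the upper line, up to 9.89 for CSRP3 among genes above background on all 6 arrays, while the HLA class II genes (dark blue) lie between -3.07 for CIITA and -5.17 for HLA-DOA, with HLA-DOB at 0.19.

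The targeted gene was lower on every ZNF148 siRNA array. ZNF148 had log2 signals of 9.44, 9.46 and 9.31 on nontargeting replicates 1 to 3 and of 7.02, 6.95 and 7.23 on ZNF148 siRNA replicates 1 to 3. The groups did not overlap, and the change was -2.34 ± 0.11 (SE, n = 3 per group; adjusted p = 5.8e-08), a 5.06-fold lower signal. A second ZNF148 probe gave -2.51 (adjusted p = 2.2e-06). The brighter probe changed by -2.74 at 96 h in differentiation media and by -2.24 at 48 h in growth media without nontargeting replicate 1 of that condition. The effect at 96 h minus that at 48 h was -0.40 (adjusted p = 0.0727) and the effect in differentiation media minus that in growth media was -0.10 (adjusted p = 0.75), and neither was called.

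Between 46.4% and 56.5% of the probes of each of the 6 arrays were well above background, no spot was saturated, and each array correlated at 0.9748 to 0.9825 with its own group. Each of 3 slides held 1 array of each group, and 5880 of the 5902 called genes changed in the same direction on all 3 slides. The calls were made on these same arrays, so this count is largely set by them and is no separate check. The arrays of the 6 cultures did not overlap between groups for 69.9% of all genes tested, 32.8% with higher and 37.1% with lower signals after knockdown, so that lack of overlap alone was common.

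The 250 bases before the transcription start of 4 of these genes are shown because their changes carry the main results. They are MYOG, a myogenic regulatory factor, CKM, a metabolic gene of muscle, ACTA1, a structural gene of muscle, and SECTM1, 1 of the largest falls. The sequences are from RefSeq on GRCh38.p14. Capitals mark an E-box (CANNTG) and the core of a MEF2 site (CTANNNNTA) in MYOG, the E-box form CAGCTG and the GC-rich string CCCTCCC in CKM, a CArG box, the site of serum response factor, in ACTA1, and CCCTCCC in SECTM1.
MYOG, chr1:203086013-203086262, minus strand: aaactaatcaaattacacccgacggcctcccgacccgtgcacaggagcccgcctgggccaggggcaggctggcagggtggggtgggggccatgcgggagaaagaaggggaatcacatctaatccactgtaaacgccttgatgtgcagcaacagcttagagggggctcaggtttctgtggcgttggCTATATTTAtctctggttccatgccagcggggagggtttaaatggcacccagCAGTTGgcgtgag
CKM, chr19:45322876-45323125, minus strand: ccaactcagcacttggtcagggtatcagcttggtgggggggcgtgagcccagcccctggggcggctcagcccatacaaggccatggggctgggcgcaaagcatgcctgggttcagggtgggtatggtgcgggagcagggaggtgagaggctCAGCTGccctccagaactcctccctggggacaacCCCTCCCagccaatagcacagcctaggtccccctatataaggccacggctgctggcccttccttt
ACTA1, chr1:229434095-229434344, minus strand: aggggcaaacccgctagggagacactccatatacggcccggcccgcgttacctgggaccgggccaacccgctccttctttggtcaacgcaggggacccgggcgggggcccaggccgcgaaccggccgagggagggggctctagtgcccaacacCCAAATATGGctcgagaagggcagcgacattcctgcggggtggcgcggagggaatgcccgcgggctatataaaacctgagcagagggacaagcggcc
SECTM1, chr17:82333767-82334016, minus strand: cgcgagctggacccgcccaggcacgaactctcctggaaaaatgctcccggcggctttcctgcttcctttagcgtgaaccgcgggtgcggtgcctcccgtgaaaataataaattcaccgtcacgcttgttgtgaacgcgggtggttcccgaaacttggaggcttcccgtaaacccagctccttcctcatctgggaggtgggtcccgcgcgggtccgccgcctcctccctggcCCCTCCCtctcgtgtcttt

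In these windows the marked E-box and MEF2 core of MYOG lay 13 and 65 bases before the start, CAGCTG and CCCTCCC of CKM 99 and 65 bases before it, the CArG box of ACTA1 97 bases and CCCTCCC of SECTM1 19 bases before it. The motifs marked were picked for each gene, and other matches were left in lower case. Among these, CCCTCCC lay 36 bases before the start in MYOG and 122 in ACTA1, and CANNTG 65 bases before it in SECTM1. Both strands were searched in the promoters of 14129 of the 18432 tested genes, which have 19860 windows of that length. CAGCTG, which is contained in CANNTG, was found in 13.7% of all these windows, in 15.4% of those of genes that rose, in 13.7% of those of genes that fell, and in 25% of the 72 windows of the sarcomere genes that rose. CTANNNNTA was found in 11.4%, 14.2%, 9.94% and 43.1% of the same sets. The CArG box was found in 1.13%, 1.77%, 1.14% and 8.33%. CCCTCCC was found in 29.7%, 31.9%, 32.5% and 40.3%, and the GC box GGGCGG in 56%, 53.1%, 60.2% and 25%. The mean GC content of the 4 sets was 61.3%, 60.8%, 62.3% and 54.8%. These shares are descriptions of letters in a fixed window, with base composition differing between the sets, and were not tested.

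Among the myogenic regulatory factors, MYOG and MYF6 rose, and MYOD1 and MYF5 were not called. MYOG, which drives terminal differentiation, had log2 signals of 9.06, 8.15 and 7.35 with nontargeting siRNA and 11.13, 11.11 and 10.95 with ZNF148 siRNA. The nontargeting arrays were spread from 7.35 to 9.06 and all lay below the ZNF148 siRNA arrays, with a change of 2.88 ± 0.34 (SE, n = 3; adjusted p = 5.5e-05). MYF6 had 12.80, 12.82 and 12.76 against 14.04, 14.09 and 14.03, a change of 1.26 (adjusted p = 8.4e-08).

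MYOD1 was already strong in both groups, at 16.84, 16.80 and 16.67 against 17.15, 17.11 and 17.21. The arrays did not overlap, and the change of 0.39 passed the adjusted p (0.00089) without reaching 2-fold. MYF5 had 11.69, 12.77 and 13.17 against 11.78, 11.88 and 11.98, so that the groups overlapped through nontargeting replicate 1. Its difference of -0.67 missed the threshold (adjusted p = 0.11), and without nontargeting replicate 1 it was -1.09 and called (adjusted p = 0.00067).

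The MEF2 factors bind the same promoters as the myogenic factors, and MEF2C had the largest change of them. It had 11.51, 11.12 and 10.60 with nontargeting siRNA and 15.29, 15.33 and 15.40 with ZNF148 siRNA, a rise of 4.27 ± 0.18 (SE; adjusted p = 4.5e-08). MEF2A rose by 1.1, from 12.17, 12.02 and 11.73 to 13.10, 12.97 and 13.14, and by 0.98 without nontargeting replicate 3, which is below 2-fold. MEF2B went the other way, from 10.49, 10.34 and 10.14 to 8.68, 8.63 and 8.86, a change of -1.61 (adjusted p = 6.8e-07). MEF2D had a change of 0.29 on 1 probe and -0.45 on the other, and was not called.

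**Figure D2:**
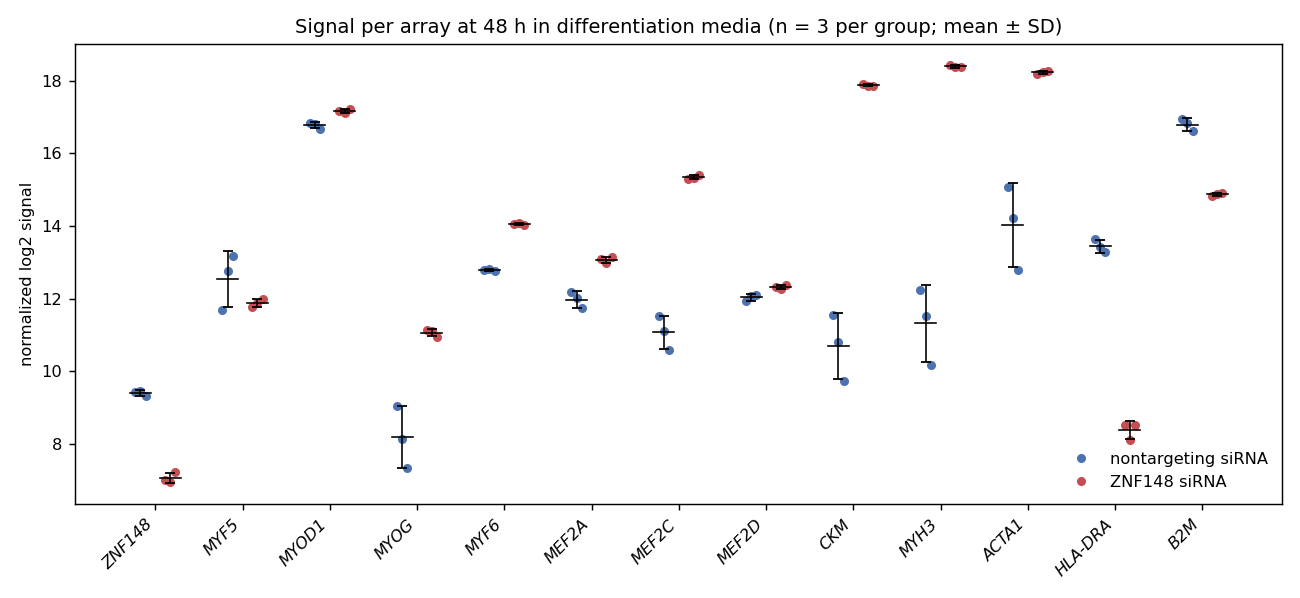
Normalized log2 signal (y axis) of 13 genes on the 3 nontargeting (blue) and 3 ZNF148 siRNA (red) arrays, with the mean and SD in black. CKM lies between 9.73 and 11.54 with nontargeting siRNA and between 17.86 and 17.90 with ZNF148 siRNA, and MYF5 is the gene whose groups overlap.

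Of 32 tested cofactors and progenitor factors, 11 rose and 6 fell, beside 15% and 17% of all genes, with a median change of 0.48. SMYD1, a muscle methyltransferase and chaperone of myosin, rose by 5.23 (9.52, 9.39 and 8.84 against 14.49, 14.48 and 14.46). VGLL2, a partner of TEAD factors in muscle, rose by 4.36. RBM20, a splicing regulator of titin, rose by 4.89 on the probe shown, while its other probes gave 1.15 (adjusted p = 0.27) and -0.77. SRF, which binds CArG boxes, rose by 2.00.

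Among the 6 that fell, BHLHE41, a repressor of MYOD1 activity, changed by -3.80, the zinc finger repressor SNAI2 by -3.45, NFIX by -2.98, the progenitor factor PAX3 by -2.64, TWIST1, which inhibits myogenic factors, by -2.43 and PITX3 by -1.75. PAX7, the marker of satellite cells, had signals between 4.58 and 5.74 over both groups and was not called (-0.27).

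Most genes of the contractile apparatus rose. Of 30 myosins and other thick filament genes, 25 rose and none fell, with a median change of 4.66 (4.599 with below-background genes at their bound) against -0.048 over all genes. Of 21 thin filament genes, 16 rose and none fell (median 4.09), and of 37 Z-disc and costamere genes, 29 rose and 1, SYNPO2, fell (median 3.24). All 3 counts stand beside the 15% of all genes that rose. In bulk RNA, a larger share of differentiated cells and more of these RNAs in each cell cannot be told apart.

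Among the thick filament genes, the embryonic myosin heavy chain MYH3 had 12.25, 11.53 and 10.18 with nontargeting siRNA and 18.43, 18.38 and 18.36 with ZNF148 siRNA. The 3 ZNF148 siRNA arrays lay close together, the nontargeting arrays were further apart, and the change was 7.07 ± 0.41 (SE; adjusted p = 2.9e-07). MYL1, an essential myosin light chain of fast fibres, went from 7.85, 7.84 and 7.54 to 16.64, 16.66 and 16.59, a rise of 8.89. MYBPC1, a myosin-binding protein of the A-band, was not well above background on any nontargeting array (2.94, 2.58 and 2.38) and had 11.55, 11.61 and 11.48 after knockdown, at least 192-fold higher. The slow myosin MYH7B rose by 7.87 and the M-band protein MYOM1 by 7.52. The perinatal myosin MYH8 rose by 4.58 and the adult fast myosin MYH2 by 3.83, from 8.11, 7.76 and 7.05 to 11.26, 11.66 and 11.47. The 5 thick filament genes that were not called were MYBPC3, MYH14, MYL7, MYH13 and MYH4. TTN, the giant spring of the sarcomere, rose on all 4 of its probes, by 3.48 to 7.05.

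In the thin filament, the calcium sensor TNNC2 of fast fibres had 11.75, 11.24 and 10.55 against 18.63, 18.63 and 18.55, a rise of 7.42. TNNI2, the inhibitory subunit of fast troponin, rose by 7.25, TNNT3, its tropomyosin-binding partner, by 6.35, and LMOD2, which elongates thin filaments, by 7.35. Skeletal actin ACTA1 had 15.08, 14.21 and 12.80 against 18.19, 18.24 and 18.27, a rise of 4.21 (adjusted p = 2.1e-05). TPM1 rose by 4.09 on its strongest probe, while its other probes gave -1.90 and 0.31, so its probes went both ways.

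CSRP3, a LIM protein of the Z-disc, had the largest rise among genes above background on all 6 arrays. It went from 5.13, 5.49 and 4.59 to 14.90, 14.99 and 14.98, a change of 9.89 ± 0.49 (SE; adjusted p = 1.1e-07), or 948-fold. KLHL40 and KLHL31, kelch proteins of muscle, rose by 9.04 and 7.90. MYOT and XIRP2, which bind actin filaments at the Z-disc and the myotendinous junction, were not above background on any nontargeting array and were higher by at least 645-fold and 331-fold.

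Excitation-contraction coupling genes were also mostly higher, with 26 of 30 higher and none lower (median 3.56, or 3.40 with below-background genes at their bound). SRL, the sarcoplasmic reticulum protein sarcalumenin, was below background on the nontargeting arrays (2.85, 2.74 and 2.15) and had 15.66, 15.80 and 15.62 after knockdown, at least 3406-fold higher. SLN, an inhibitor of the calcium pump, was at least 769-fold higher, the calcium buffer PVALB at least 760-fold higher and TRDN, the anchor of the release complex, at least 151-fold higher. The calcium store protein CASQ2 rose by 7.97, from 6.42, 5.56 and 4.63 to 13.50, 13.56 and 13.47. The release channel RYR1 rose by 3.42 and the pump ATP2A1 by 4.21. CLCN1, JSRP1, ASPH and RYR3 were not called.

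Of 32 creatine and energy genes, 20 rose and none fell (median 2.13). Muscle creatine kinase CKM had 11.54, 10.81 and 9.73 with nontargeting siRNA and 17.90, 17.86 and 17.86 with ZNF148 siRNA. The groups did not overlap, and the change of 7.18 ± 0.36 (SE; adjusted p = 1.1e-07) was 145-fold. For CKM, MYH3, ACTA1, MYOG and MEF2C alike, nontargeting replicate 1 had the highest and replicate 3 the lowest control signal, and the change in CKM on the 3 slides was 6.32, 8.17 and 7.05. The mitochondrial creatine kinase CKMT2 was at least 125-fold higher, AMP deaminase AMPD1 rose by 7.39 and glycogen phosphorylase PYGM by 7.22. ENO3, the muscle enolase, rose by 6.17. LDHB and CKMT1A had -0.61 and -1.54 and were not called. Among 37 respiratory chain subunits the shift was small, with 5 higher, none lower and a median of 0.46, and NDUFS1 had the largest rise (1.52).

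Other genes with the 10 largest rises were RASGRP2, a Rap activator (8.07), EEF1A2, the elongation factor isoform of muscle and neurons (7.72), CYP2J2, an epoxygenase (7.68), and NPNT, a matrix ligand of integrins (7.66). HS6ST2, a heparan sulfate sulfotransferase, was below background on the nontargeting arrays and at least 459.5-fold higher. Its second probe, also below background there, was at least 55.2-fold higher.

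**Figure D3:**
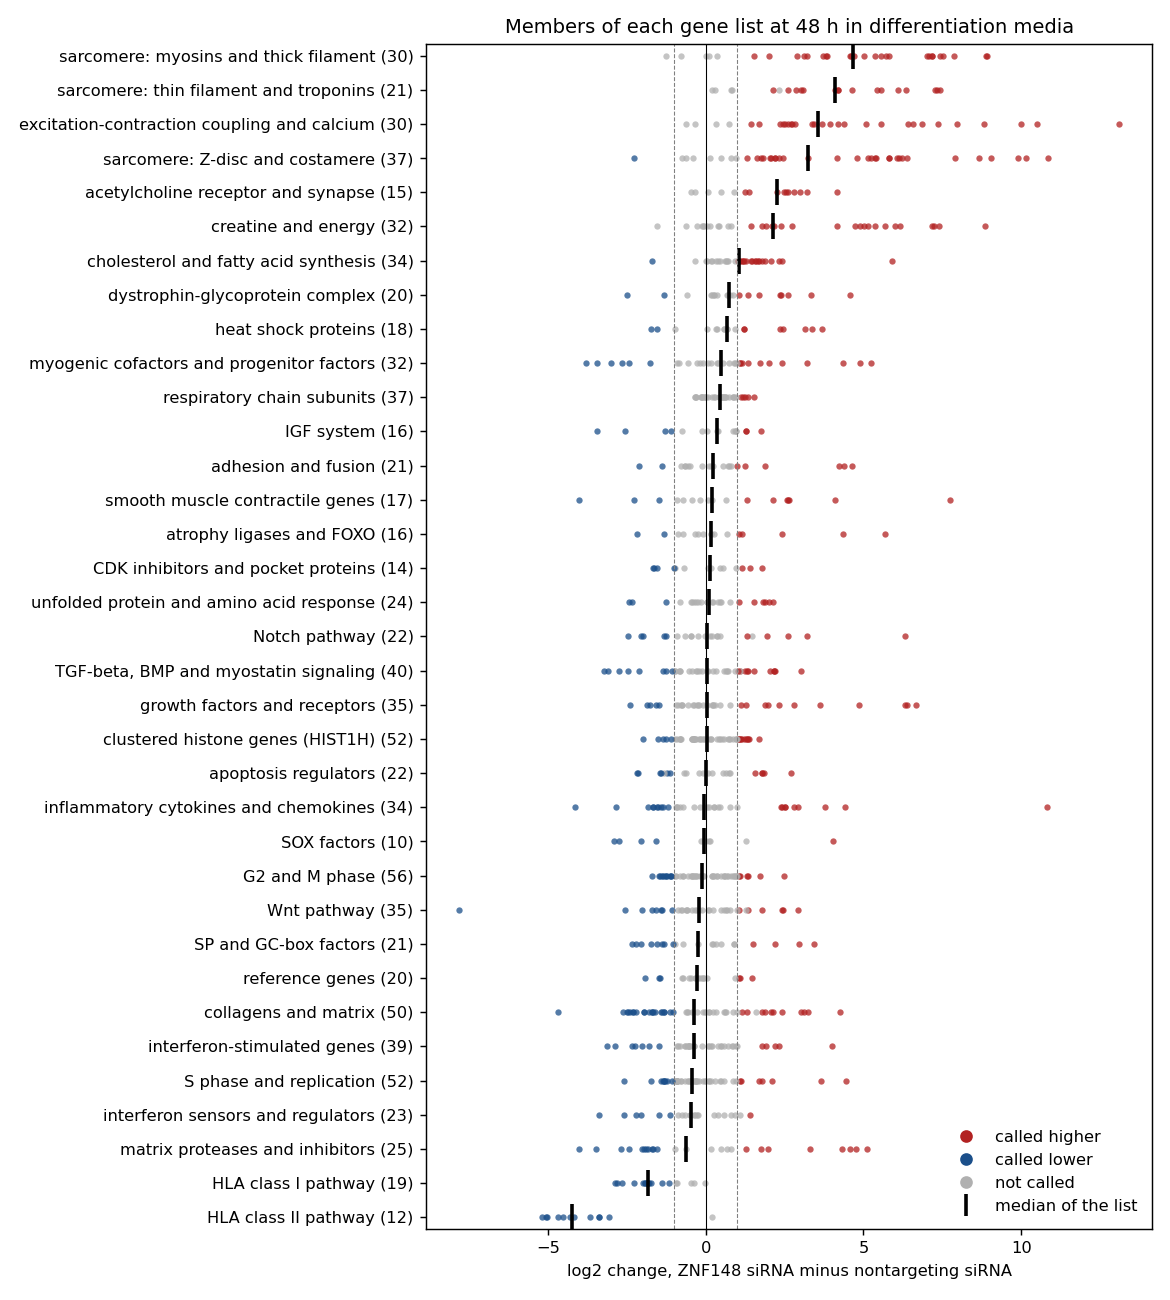
Log2 change (x axis) of every tested member of each gene list shown, with the number tested in brackets. Red and blue points are members called higher and lower, grey points are not called, and the black bar is the list's median, which runs from 4.66 for the thick filament to -4.23 for the HLA class II pathway.

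The membrane systems of muscle rose in part. At the neuromuscular junction, 10 of 15 genes rose and none fell (median 2.27), among them the acetylcholine receptor subunits CHRND (4.16) and CHRNB1 (3.20), the receptor-clustering adaptor DOK7 (2.98) and the acetylcholinesterase anchor COLQ (2.81). CHRNA1, another receptor subunit, had 0.07 and was not called. In the dystrophin-glycoprotein complex, 8 of 20 rose and 2 fell (median 0.74). CAPN3, a muscle calpain, rose by 4.59, DYSF, which reseals the membrane, by 2.61, and DMD by 1.34, while SNTB2, a syntrophin, changed by -2.49.

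Of 21 adhesion and fusion genes, 6 rose and 2 fell, beside 15% and 17% of all genes (median 0.24, or 0.40 with below-background genes at their bound). TMEM182, a membrane protein of muscle, rose by 4.65, the scavenger receptor STAB2 by 4.37 and the adhesion molecule NCAM1 by 4.22, and ITGA3 changed by -2.12. MYMK, the fusogen myomaker, had 14.77, 14.81 and 14.81 against 15.03, 14.91 and 14.95, a difference of 0.17 that was not called. Among 16 ubiquitin ligase and FOXO genes, 5 rose and 2 fell, beside the same shares of all genes. TRIM54 and TRIM63, ligases of the sarcomere, rose by 5.68 and 4.35 and FOXO4 by 2.43, while FBXO32, the other ligase known from atrophy, had -0.71 and was not called, and SQSTM1, an autophagy receptor, changed by -2.18.

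Small heat shock proteins that are known from muscle rose, namely HSPB8 (3.69), HSPB7 (3.39), HSPB3 (3.14) and CRYAB (2.46). In their list of 18, 7 were higher and 2 lower, beside 15% and 17% of all genes. The heat-inducible HSPA1B and DNAJB1 changed by -1.72 and -1.53. Cholesterol and fatty acid synthesis genes were higher in 20 of 34 cases and lower in 1, the efflux pump ABCA1 (-1.68), with a median of 1.07. The early enzymes IDI1 and HMGCS1 rose by 2.43 and 2.32.

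The smooth muscle contractile list had 7 genes higher and 3 lower of 17 (median 0.19), beside 15% and 17% of all genes. The smooth muscle myosin MYH11 was below background on the nontargeting arrays and at least 95.35-fold higher. ACTA2, smooth muscle actin, rose by 2.64, TAGLN by 2.58 and CNN1, above background on 2 of 3 nontargeting arrays, by 2.61. The myosin light chain kinase MYLK changed by -4.01 (13.38, 13.55 and 13.80 against 9.63, 9.48 and 9.61). ACTG2, the other smooth muscle actin, changed by -1.48.

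SFRP1, a secreted antagonist of Wnt ligands, had the largest fall among genes above background on all 6 arrays. It had 12.53, 13.03 and 13.34 with nontargeting siRNA and 5.14, 5.03 and 5.32 with ZNF148 siRNA. The arrays of the groups were far apart, and the change was -7.81 ± 0.19 (SE; adjusted p = 1.8e-09). EVI2A, a membrane protein gene within an intron of NF1, changed by -5.86. SECTM1, a ligand of T and NK cells, had 14.76, 14.89 and 14.88 against 9.57, 9.16 and 9.48, a change of -5.45. CYB561A3, a reductase of lysosomes, changed by -5.42 and SEZ6L2 by -5.17. LAMA3, a laminin chain, changed by -5.09 on the probe shown, while another had -0.99 (adjusted p = 0.31). ABCC6, a transporter with near-identical pseudogenes, changed by -4.88 and by -2.19 to -5.60 on its other probes. PTGIS, prostacyclin synthase, and FGL2 were not above background on any ZNF148 siRNA array and were lower by at least 46.5-fold and 33.2-fold, and PNLIPRP3, KLHDC9 and CRYBG1 by at least 48.2-fold, 31.4-fold and 27.9-fold.

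HLA class II genes present peptides to helper T cells and are under the coactivator CIITA. Of 12 tested members of the pathway, 11 fell and none rose, with a median change of -4.23, beside 17% of all genes that fell. HLA-DRA had 13.63, 13.43 and 13.27 against 8.51, 8.11 and 8.54, a change of -5.06 ± 0.16 (SE; adjusted p = 7.8e-09). HLA-DPA1 had 15.44, 15.32 and 15.19 against 10.43, 10.13 and 10.33, a change of -5.02. HLA-DPB1 changed by -4.69 to -4.91 on 4 probes. HLA-DOA changed by -5.17 on its brighter probe, while the other had -0.24 (adjusted p = 0.42). CIITA itself had 7.18, 7.13 and 6.45 against 3.98, 3.19 and 4.38, and the invariant chain CD74 had 8.43, 8.04 and 7.87 against 5.00, 4.37 and 4.84. Both fell, with changes of -3.07 for CIITA (adjusted p = 0.00598) and -3.37 for CD74 (adjusted p = 1.7e-07). HLA-DOB, at 5.51 to 6.35 on all 6 arrays, did not pass the test (0.19). HLA genes are polymorphic and alike, and a probe may read more than 1 of them.

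In the 11 promoter windows of 10 class II genes, the CCAAT box was found in 81.8%, against 32.8% of the windows of all tested genes. CTGATTGG, the Y-box form that overlaps it, was found in 27.3%, those of HLA-DMA, HLA-DQB1 and HLA-DRB1, against 4.54%. HLA-DOB, which was not called, had 2 CCAAT boxes, and HLA-DPA1, which fell, had none. The mean GC content was 48.5% in the class II windows and 61.3% in those of all tested genes. These shares were not tested.

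In the class I pathway, which presents peptides of the cell's own proteins, the genes were also lower, with 14 of 19 genes lower, none higher and a median of -1.84. HLA-B had 15.55, 15.37 and 15.18 against 12.57, 12.42 and 12.53, a change of -2.86 (adjusted p = 2.2e-08). The light chain B2M, often used as a reference gene, had 16.95, 16.82 and 16.60 against 14.82, 14.88 and 14.90, a change of -1.93. The immunoproteasome subunits PSMB8 and PSMB9 changed by -2.82 and -2.64 and the peptide transporter TAP1 by -1.37. HLA-E lay between 17.17 and 17.24 on all 6 arrays and was not called (-0.02).

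CDKN1A, a CDK inhibitor that is also induced in differentiating muscle, rose from 10.02, 9.56 and 9.46 to 10.85, 10.93 and 10.68 (1.14). Of 22 apoptosis regulators, 5 were higher, such as PMAIP1 (2.69) and APAF1 (1.84), and 6 lower, such as CASP8 (-2.16) and BMF (-2.15), beside 15% and 17% of all genes.

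Of the matrix genes, 11 of 50 rose and 21 fell (median -0.36), beside 15% and 17% of all genes. THBS2, an inhibitor of vessel growth, had 11.23, 11.30 and 11.22 against 6.32, 6.65 and 6.72, a change of -4.69, and the collagen chains COL1A1 and COL1A2 went apart, with 1.31 and -1.13. HAS2, hyaluronan synthase, rose by 4.26 and COL19A1 by 3.12 on the probe shown. COL6A3 was at least 3.74-fold higher on 1 probe, while another was not above background on any array. The first COL6A3 probe had a log2 change of 0.89 to 3.60 over the settings tried. Of 25 matrix proteases and inhibitors, 8 rose and 11 fell, beside the same shares (median -0.63, or -0.14 with below-background genes at their bound). The gelatinases went in opposite directions. MMP9 had 5.37 to 5.89 against 10.49 to 10.82, a rise of 5.10, and MMP2 had 11.79, 11.91 and 11.92 against 7.99, 7.73 and 7.89, a change of -4.01. TIMP3, above background on 2 of 3 nontargeting arrays, rose by 4.76, or by 3.07 to 4.93 over the settings tried. TIMP4 was at least 14.8-fold higher and ADAMTS9 rose by 4.33.

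Secreted signals and their receptors are read beside the 15% of all genes that rose and the 17% that fell. Of 35 growth factors and receptors, 11 rose and 5 fell. The neurotrophin receptor NGFR had 7.73, 6.75 and 4.62 against 12.93, 13.07 and 13.06, a rise of 6.65. HBEGF was at least 43.1-fold and FGF9 at least 37.3-fold higher, and BDNF rose by 3.63. EGF, above background on 2 of 3 nontargeting arrays, rose by 4.88, or by 2.62 to 5.35 over the settings tried. The receptors MET and EGFR changed by -2.40 and -1.86. In the IGF system, 3 of 16 rose and 4 fell, with IGFBP5 at 1.76 (adjusted p = 0.0559 in a fit of all 29 arrays), IRS1 at 1.29, IGFBP4 at -3.45 and IGFBP6 at -2.55. In TGF-beta, BMP and myostatin signaling, 11 of 40 rose and 8 fell. LTBP1, which stores latent TGF-beta, changed by -3.21 and the receptors TGFBR2 and BMPR1B by -3.09 and -2.73, while the activin receptor ACVR2B rose by 3.03.

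In the Notch pathway, 5 of 22 rose and 5 fell, beside 15% and 17% of all genes. The feedback inhibitor NRARP, above background on 2 of 3 nontargeting arrays, rose by 6.32, or by 4.08 to 6.66 over the settings tried. HES6, an antagonist of HES1 that favours differentiation, rose by 3.20 on the probe shown and on all 4 of its probes. The ligand DLL1 changed by -2.45, and LFNG had 2.62 on 1 probe and -2.36 on another. In the Wnt pathway, 6 of 35 rose and 8 fell, beside the same shares. TCF7L1 was at 2.91, FZD6 at -2.56 and NKD1 at least 2.11-fold higher. Over the settings tried, NKD1 had a log2 change of 0.44 to 3.01. Of 10 SOX factors, which had a median of -0.07 or, with below-background genes at their bound, -0.85, 1 rose, SOX11 (4.04), and 4 fell, among them SOX8 (-2.89), SOX9 (-2.73) and SOX4 (-2.04). Of 21 SP, KLF and other GC-box factors, a list that holds ZNF148 itself and VIM, 4 rose and 8 fell, beside the same shares of all genes. KLF5 rose by 3.43 and EGR3 was at least 3.67-fold higher, while KLF10 changed by -2.20 and SP3 by -1.32. The log2 change of EGR3 was 0.74 to 3.13 over the settings tried. SP1 had -0.70 (adjusted p = 2.5e-05), less than 2-fold. VIM, the intermediate filament vimentin, a known target of ZNF148, had 18.14, 18.07 and 18.16 against 17.04, 17.04 and 17.18, a change of -1.04 that was -0.97, below 2-fold, with scaling to the 75th percentile.

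Inflammatory cytokines and chemokines had 9 of 34 higher and 10 lower (median -0.06), beside 15% and 17% of all genes. IL17B had 5.91, 5.39 and 3.37 with nontargeting siRNA, above background on 2 of the 3 arrays, and 15.75, 15.73 and 15.64 after knockdown. It rose by 10.82 (limma's adjusted p = 1.1e-07), or by 8.89 to 11.32 over the settings tried. CCL20 rested on unequal arrays, at 7.91, 2.94 and 2.00 against 8.57, 8.72 and 8.82, with a change of 4.42 (adjusted p = 0.013) that was 0.81, 6.58 and 5.88 on the 3 slides. Without nontargeting replicate 2 its adjusted p was 0.0515. CXCL11 was at least 3.6-fold higher, and IL1B was at least 8.28-fold lower. Over the settings tried, their log2 changes were 1.05 to 4.33 and -4.51 to -1.215. Of 24 unfolded protein and amino acid response genes, 6 rose and 3 fell, beside the same shares of all genes. ASNS was at 2.15, TRIB3 at 2.01, DDIT4 at -2.42 and PSAT1 at -2.33.

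**Figure D4:**
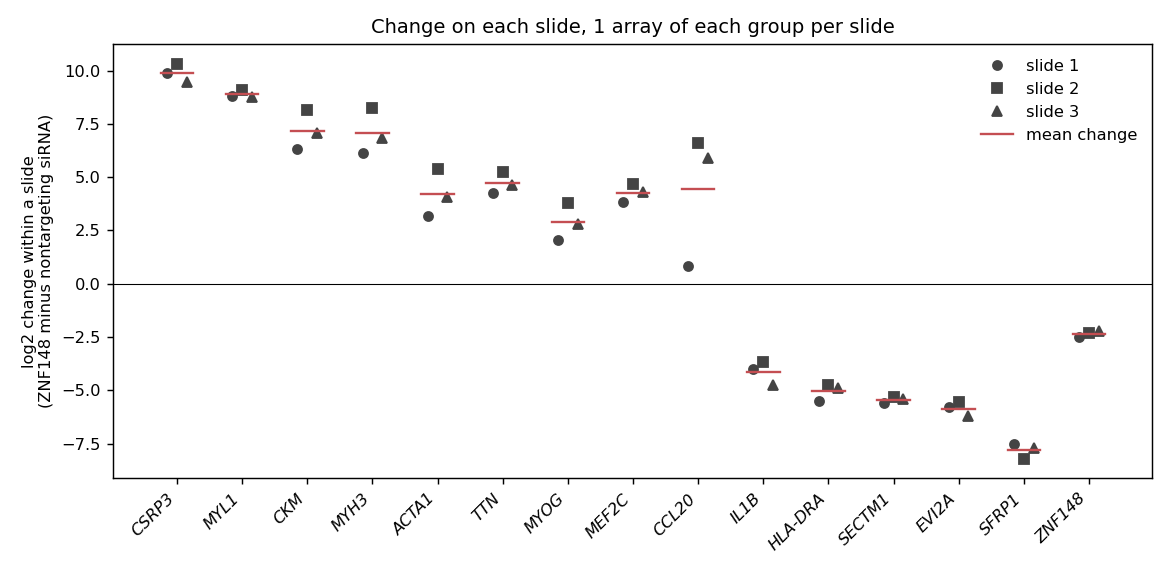
Log2 change of 15 genes on each of the 3 slides (circle, square and triangle), each from 1 ZNF148 siRNA array minus 1 nontargeting array, with the mean change as a red line. All 15 were called on these same arrays and keep their sign on every slide. CCL20 is the gene whose slides differ, from 0.81 on slide 1 to 6.58 on slide 2.

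Most cell cycle genes were not called at 48 h in differentiation media. Of 56 G2 and M phase genes, 6 rose and 11 fell, with a median of -0.11, near the -0.048 of all genes. Of 52 S phase and replication genes, 7 rose and 9 fell, beside 15% and 17% of all genes. Their median of -0.42 lay below that of all genes, and 31 of them had lower signals without overlap between the arrays, beside 37.1% of all genes. The proliferation antigen MKI67 had 6.06, 6.35 and 5.97 against 6.84, 6.45 and 6.95, a difference of 0.62 that missed the threshold (adjusted p = 0.053). CDK1, the mitotic kinase, rose by 1.07, the cytokinesis genes ANLN and KIF23 by 2.49 and 1.71, and the repressor E2F8 and the chromatin factor UHRF1 by 4.46 and 3.66. FOXM1, the activator of mitotic genes, changed by -1.70, CDC20 by -1.48 and the helicase subunit MCM7 by -2.58. In the list of CDK inhibitors and pocket proteins, which also holds CCND2 and CDK4, 3 of 14 rose and 4 fell, beside the same shares. CDKN2D, a CDK inhibitor, rose by 1.80, and CCND2, RBL2 and CDK4 changed by -1.66, -1.54 and -1.64. The line carries a CDK4 transgene, so the CDK4 probe may read both copies.

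The effects on the same lists differed from those in the other conditions, where the time since transfection may also differ between the media. In growth media at 48 h, the median effect of the knockdown was -3.43 for the G2 and M phase genes and -2.16 for the S phase genes, taken without nontargeting replicate 1 of that condition. That array stands apart from its group in muscle genes, which gives CKM an SD of 5.87 there. The test of the difference between media compares log2 effects of the knockdown, not signals. Here and below, a higher or lower effect refers to the signed log2 value. A smaller fall therefore counts as a higher effect and a larger fall as a lower effect. Without that array, 53 of 56 G2 and M phase genes and 40 of 52 S phase genes had a higher effect in differentiation media. None had a lower one, beside 8.11% higher and 10.2% lower over all genes. The median nontargeting signal of the G2 and M phase list was 6.78 to 6.97 on the arrays in differentiation media and 11.31 in growth media. With all 29 arrays the counts were 53 and 36. The mean signal of MKI67 with nontargeting siRNA was 11.11 in growth media, and its values of 5.97 to 6.35 in differentiation media were all lower than that mean. At 96 h in differentiation media, the median effects were -2.61 and -0.98. There, 43 G2 and M phase genes and 21 S phase genes had a lower effect than at 48 h and none a higher one. Over all genes, 9.35% had a lower and 7.93% a higher effect. For MKI67 the effect was -2.56 at 96 h, and the difference from 48 h was -3.19 (adjusted p = 0.00010).

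Of 52 histone genes of the HIST1H cluster, which are made in S phase, 11 were higher and 5 lower, beside 15% and 17% of all genes. Their median effect was 0.05, against -1.51 in growth media without nontargeting replicate 1. In the test between media without that array, 29 had a higher effect in differentiation media and none a lower one, beside 8.11% and 10.2% of all genes. With all 29 arrays, 28 had a higher effect and none a lower one. The median nontargeting signal of the list was 9.54 to 9.61 on the arrays in differentiation media and 10.77 in growth media. H4C11 and H4C12 changed by -1.98 and -1.52 and H2BC8 by 1.36. The copies are near-identical, and a probe may read several of them.

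Many muscle genes had a smaller effect at 96 h than at 48 h in differentiation media. The median effect of the thick filament list was 4.66 at 48 h and 2.96 at 96 h, that of the thin filament list 4.09 and 1.78 and that of the calcium-handling list 3.56 and 2.90. In the test of the difference, 16 of 30, 14 of 21 and 18 of 30 members had a lower effect at 96 h and 1, 0 and 1 a higher one. Over all genes, 9.35% had a lower and 7.93% a higher effect. For CKM, the nontargeting mean was 14.31 ± 0.20 (SD, n = 3) at 96 h, above all 3 nontargeting arrays at 48 h, while the mean with ZNF148 siRNA was 17.91 ± 0.019 (SD, n = 3), near its values at 48 h. The effect on CKM was 3.60 at 96 h and the difference from 48 h was -3.58 (adjusted p = 0.00055). For MYOG, the effect was 0.96 at 96 h, with a difference of -1.91 (adjusted p = 0.014). For MEF2C, it was 1.99, with a difference of -2.28 (adjusted p = 0.00016).

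In growth media at 48 h, the comparison with the same lists turned on 1 array. Without nontargeting replicate 1 the medians were 6.06, 6.11 and 5.81, and with it 4.48, 4.46 and 4.44, of which the first is below the 4.66 in differentiation media. By the test of the difference without that array, 13 of 30, 11 of 21 and 13 of 30 members had a lower effect in differentiation media. A higher effect was found for 1, 1 and 3, beside 10.2% lower and 8.11% higher over all genes. With all 29 arrays, none of the thick or thin filament genes and 2 of the calcium-handling genes had a lower effect. A higher effect was found for 1, 1 and 3, beside 9.02% lower and 8% higher over all genes. For CKM, the effect in growth media was 11.45 without that array and 8.07 with it, and the difference between media was -4.27 (adjusted p = 3.1e-08) and -0.89 (adjusted p = 0.83).

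**Figure D5:**
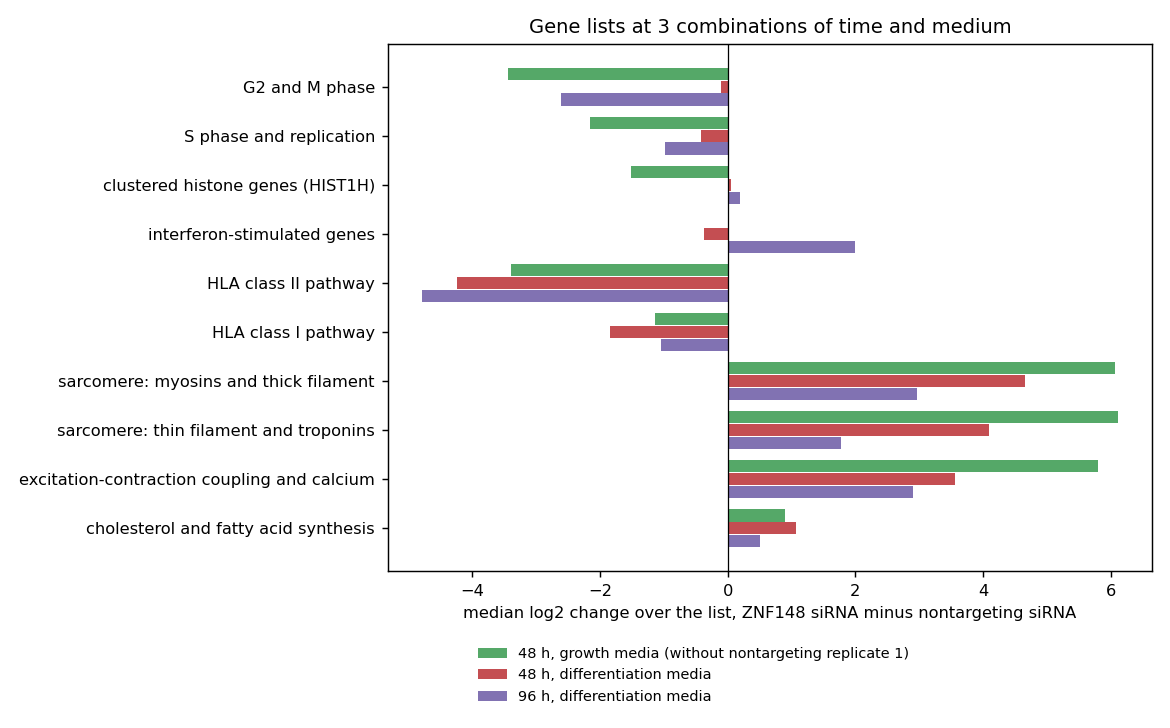
Median log2 change, ZNF148 siRNA minus nontargeting siRNA, over 10 gene lists (y axis) at 48 h in growth media without nontargeting replicate 1 (green), at 48 h in differentiation media (red) and at 96 h in differentiation media (purple). The G2 and M phase list has medians of -3.43, -0.11 and -2.61, and the interferon-stimulated list -0.0012, -0.37 and 2.00.

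Interferon-stimulated genes were another group with a time difference. At 48 h in differentiation media, 5 of 39 rose and 7 fell (median -0.37), near the 15% and 17% of all genes. BST2, which tethers budding virus, was above background on 1 of 3 nontargeting arrays and rose by 4.02, or by 1.81 to 4.16 over the settings tried. ISG15, a ubiquitin-like modifier, rose by 2.21, while TRIM22, LY6E and IFI44L changed by -3.13, -2.86 and -2.34. IFIT1, which binds foreign RNA, had 13.58, 13.84 and 13.95 against 13.20, 13.68 and 13.34 and was not called (-0.38). At 96 h, 30 of the 39 were higher and 1 was lower (median 2.00), beside 10.4% and 12.6% of all genes. The effect was higher than at 48 h for 36 of them and lower for none, beside 7.93% and 9.35% of all genes. The effect on IFIT1 was 4.78 at 96 h, a difference of 5.16 (adjusted p = 1.2e-06). Among 23 sensors and regulators of the interferon response, 1 rose and 6 fell at 48 h, beside 15% and 17% of all genes. The receptor chain IFNAR1 was at -3.38, the RNA sensor TLR3 at -2.59, DHX58 at -2.20 and STAT2 at -2.04.

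Among the lists that were lower at 48 h in differentiation media, the median effect on the class II list was -4.23 at 48 h and -4.78 at 96 h in differentiation media and -3.39 in growth media without nontargeting replicate 1, and that on the class I list was -1.84, -1.04 and -1.14. In the test between media without nontargeting replicate 1, 5 of 12 class II genes had a lower effect in differentiation media and none a higher one. Over all genes, 10.2% had a lower and 8.11% a higher effect. For SFRP1, the effects were -7.81, -5.56 and -3.98, with a difference of 2.24 between the times (adjusted p = 0.00022) and of -3.83 between the media (adjusted p = 2.4e-11).

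The labelled cell type was checked against marker genes. All 7 markers of differentiated muscle rose, with a per-array median of 10.18 to 12.25 for nontargeting siRNA and 17.86 to 17.90 for ZNF148 siRNA. Of 8 myoblast markers, 7 were above background on all 6 arrays, NCAM1 and DES rose and none fell. Markers of other cell types moved as well. Of 6 fibroblast markers, THY1 (-2.67), DCN (-2.39) and LUM (-1.41) fell and COL1A1 rose, with a per-array median of 12.89 to 13.11 against 10.90 to 11.01, and all 4 smooth muscle markers rose (7.07 to 7.49 against 11.53 to 11.69). Of 5 neuron markers, SNAP25 (-3.67) and TUBB3 (-1.24) fell and MAP2 was at least 1.87-fold higher (9.44 to 11.03 against 7.99 to 8.12), and SYP was not above background on any array. MAP2 had a log2 change of 0.43 to 2.93 over the settings tried. Of 5 endothelial markers, TEK and KDR were lower by at least 11.0-fold and 1.80-fold (6.13 to 6.32 against 5.18 to 5.30). Over the settings tried, their log2 changes were -4.435 to -1.717 and -1.88 to -0.25. Of 5 leukocyte markers, CD14 alone was called (-1.11), a call that was lost with the 6 arrays alone (adjusted p = 0.0906), with medians of 4.53 to 5.36 against 4.35 to 6.92. No epithelial or adipocyte marker was called, and the epithelial CDH1 was not above background on any array. The part of these genes in the changes of the matrix and HLA lists was not tested. Of 20 reference genes, 3 rose and 3 fell (median -0.26), among them YWHAZ (1.48), GUSB (-1.47), PPIB (-1.46) and B2M, while ACTB and GAPDH had -0.12 and -0.51 and were not called.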

How the data were processed

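RNA of 29 LHCN-M2 cultures was hybridized to 1-colour Agilent 8x60K arrays, and the 6 arrays at 48 h in differentiation media are described here. Per the file headers, Agilent Feature Extraction 10.7.3.1 made the deposited intensities (processed signals, background-subtracted), and the authors also deposited log2 values that, per the methods, are quantile-normalized. Here the log2 processed signals, without control spots and outlier flags, were averaged per probe and quantile-normalized over all 29 arrays. A probe was tested if 2 or more arrays measured it well above background (38839 of 58201). RefSeq gave 31104 probes a gene, and where a gene had several tested probes the brightest on average stands for it. Precision is limited by the 3 arrays of each group.

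Group means were fitted with limma 3.58.1 in R 4.3.3 on the 12 arrays in differentiation media, with two-sided moderated tests, Benjamini-Hochberg adjustment over all probes and a 2-fold threshold. Growth media entered only the comparison between media, in a fit of all 29 arrays and again without nontargeting replicate 1 at 48 h in growth media, because that array stands apart in muscle genes and would widen their error. The differences between times and between media both use the 6 arrays at 48 h in differentiation media, and so share their control arrays with each other and with the main comparison. Scripts were tested on simulated data. For genes below background on every array of a group, at least N-fold is the bright group's mean over the dim group's mean, with each dim array raised to its lowest signal well above background. This bound applies to the main processing only. The genes, lists and comparisons were chosen with earlier results of these data known. Named genes are the 10 largest rises and falls above background on all 6 arrays without overlap, the 5 largest bounds each way, the 4 largest called members of each of 47 lists, all myogenic and MEF2 factors, genes the study names, and the 5 largest differences each way between conditions. Other members, such as HLA-DOB, SYNPO2, CDKN1A, CIITA, CD74, MKI67, MMP2 and genes given as not called, were chosen after their values were seen. Alternatives changed the scaling, background correction, filter, arrays in the fit, variance model, blocks, test and threshold, and left out each array. Promoters are the 250 bases before the start in RefSeq's GRCh38.p14 annotation. Some genes and 1 list are not reported here. Drawings used matplotlib 3.10.9 in Python 3.11.15.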

Additional observations from a re-analysis of the deposited data

Results flagged for a closer look

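The effect of ZNF148 knockdown differed between 96 and 48 h in differentiation media for 3185 genes and between differentiation and growth media at 48 h for 3137 genes, by limma's test of the difference with the 2-fold threshold. The genes below have the largest differences in each direction among genes above background on every array of the group with the higher signal.

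Between the times, the smooth muscle actin ACTG2 differed by 7.158 on the log2 scale, from -1.48 at 48 h to 5.68 at 96 h. DAPL1, which was lower by at least 17.1-fold at 48 h, had 0.55 at 96 h. Its fitted difference of 6.415 rests on ZNF148 siRNA signals below background at 48 h, and with these at their bound it was at least 4.644. The antiviral genes IFIT1 and OAS1 differed by 5.16 and 4.775, from -0.38 and 0.20 at 48 h to 4.78 and 4.97. ANKRD29 differed by 4.929, from -6.87 to -1.94. In the other direction, GADL1 differed by -7.317, from 5.95 at 48 h to -1.37 at 96 h, and the neurotrophin receptor NGFR by -7.079, from 6.65 to -0.43. SRL was at least 3406-fold higher at 48 h and 6.62 on the log2 scale higher at 96 h, and FOXS1 at least 70.2-fold higher at 48 h and at 1.17 at 96 h. Their fitted differences of -6.497 and -6.189 rest on nontargeting signals below background at 48 h, and with these at their bound they were -5.116 and -4.961 or further from 0, so the places of these genes and of DAPL1 in the order are not settled. CTRC differed by -6.154, from 1.37 to -4.78, while its other probe had -0.15 at 48 h.

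Between the media, the histone gene H3C15, which has near-identical copies, differed by 5.746, from -2.69 in growth media to 3.06 in differentiation media. HAS2 differed by 5.306, from -1.05 to 4.26, the mitotic kinesin KIF14 by 5.243, from -4.56 to 0.69, and FAM83D, a spindle protein, by 5.224, with 2.51 in differentiation media. The protease inhibitor A2M differed by 5.196, with 10.69 in differentiation media, and by 3.33 without nontargeting replicate 1 in growth media. In differentiation media, 2 of its 3 nontargeting arrays were above background. KCNF1 differed by -6.979, from 4.16 in growth media to -2.81 in differentiation media, and by -8.21 without that array. CD24 differed by -5.753, from 1.38 to -4.37, RIMS3 by -5.626, with -4.38 in differentiation media, ATP2A3 by -5.008, with -6.13, and GADD45G by -4.929, from 3.02 to -1.91.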

How the results depend on the processing

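Of 10799 probes called, normexp background correction left 6031, the requirement of signal above background on all 6 arrays 6880, and dropping the fold threshold gave 19819. Genes called went from 5902 to 11496 without the fold threshold and otherwise ranged from 4061 under normexp, where 4042 of the 5902 kept their call, to 6226 with array weights. None of them was called in the opposite direction under any alternative run. Differences called between the times went from 5503 probes to 3025 under normexp, and between the media from 5419 to 2991. Leaving out 1 array gave 10343 to 10991 probes, 5727 to 6016 genes, 5107 to 5899 differences between the times and 5037 to 5627 between the media, and ZNF148 stayed between -2.421 and -2.282. The replicate numbers do not pair the arrays (correlations of same-numbered deviations from -0.0668 to 0.034), and with a replicate block 10692 probes, 5868 genes, 5359 differences between the times and 5386 between the media were called, with ZNF148 at -2.34. With slide as a block 10765 probes were called. The methods' t-test called 10643 probes unadjusted and 10150 after Benjamini-Hochberg adjustment. Scaling to the 75th percentile moved the median of all genes by 0.102.

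The sign of a named gene or of a list median turned by more than the spread between arrays, or for a gene by any amount, in 4 cases. The median of the endothelial markers was 0.09597 with the strict filter, which left 3 genes. MEF2D was -0.08184 with its probes averaged. The median of the CDK inhibitors and pocket proteins list was -0.1253 without nontargeting replicate 3 and up to 0.3509 without another array. OAS1 was -0.05619 to 0.3472 when 1 array was left out. With no such tolerance, the medians of 9 of the 47 lists had the other sign under at least 1 alternative. Besides the CDK inhibitors and pocket proteins list and the endothelial markers, these were inflammatory cytokines (-0.92 to 0.17), TGF-beta signaling (-0.09 to 0.14) and Notch (-0.0082 to 0.15). The others were apoptosis (-0.04 to 0.21), growth factors (-0.01 to 0.29), adipocyte markers (-0.83 to 0.43) and leukocyte markers (-0.46 to 0.29). Of 4282 values of named genes over the alternatives, 4245 kept their call, 34 lost it and 1 gained it. Under normexp, CDC20 (-0.93), COL6A3 (0.89), BMPR1B (-0.97), NKD1 (0.44), EGR3 (0.74), KDR (-0.25), CD14 (-0.80), MAP2 (0.43), H1-6 (0.26), ACTG2 (-0.96) and CTRC (0.70) fell below 2-fold. With probes averaged by gene, TPM1 (0.83), IRS1 (0.96), LFNG (0.13) and CTRC (0.61) did. CCL20 lost its call with only the 6 arrays (adjusted p = 0.0683), under the methods' t-test and without nontargeting replicate 2, and MEF2A (0.98) without nontargeting replicate 3. Scaling to the 75th percentile left TUBB3 at -0.98 and VIM at -0.97, and array weights left VIM at -0.99. IGFBP5 lost its call with all 29 arrays (adjusted p = 0.0559) and under the adjusted t-test of the methods (0.0665), as NKD1 (0.0901) and CTRC (0.089) did under the latter. CTRC was at 0.94 without nontargeting replicate 3. CD14 lost its call with only the 6 arrays (adjusted p = 0.0906), under the methods' t-test and without nontargeting replicate 1 or 2 or ZNF148 siRNA replicate 2. The causes were not tested. Dim genes are limited most by their signal over background, for which only bounds can be given where a group has none above it.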
